A study of Mus musculus with 2 samples.

Results

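EGR1 ChIP-seq of mouse frontal cortex gave 1286 peaks on the shoulders of promoters, or 10.7% of the 12014 peaks in the deposited list. A shoulder peak is one whose centre lies more than 500 bp and at most 2000 bp from the nearest transcription start site (TSS) of a protein-coding transcript, on the mouse build mm10 with GENCODE release M21. Of these, 465 lay upstream and 821 downstream of that TSS. The 649 peaks at most 2000 bp from a TSS and within 1 kb of TSSs of different genes on opposite strands were left out, because upstream of one gene is then downstream of the other. Only 24 of the 649 were more than 500 bp from a TSS. The shoulder peaks belonged to 1172 genes, named here by the nearest TSS, and 3 of them lay on scaffolds, which were left out where sequence was read.

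The chromatin came from frontal cortices of male 129SvEv/C57BL/6N F1 hybrid mice at 6 weeks of age, pooled over several mice for each ChIP experiment. An antibody against EGR1 pulled down the bound DNA, and the authors merged 2 replicates into a single peak list with an irreproducible discovery rate (IDR) for each peak. A low IDR marks a peak that ranked high in both replicates, and the list stops at an IDR of 2%. The input DNA was not analysed here, the read depth behind a peak is unknown, and no value of a single replicate was at hand, so intervals and tests below cover the counting of peaks only. The cortex holds neurons and glia together, and a peak does not tell which cells carried it.

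EGR1 is a zinc-finger transcription factor of the immediate early class, made within minutes when neurons fire, and it takes part in memory formation. Its zinc fingers read a short GC-rich motif, GCGTGGGCG or GCGGGGGCG, which contains CpGs. The core promoter around a TSS is where RNA polymerase and the general factors assemble. The flanks beyond it hold further regulatory sequence upstream, and the first exon and first intron downstream.

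Sequences of 3 peaks of each side are shown because they carry the features compared below, namely motif, base composition and side. They are the peaks with the lowest IDR among those at most 300 bp wide that overlap no annotated UTR, with the Egr1 peak and peaks on scaffolds not printed. They are read from GRCm38.p6, the reference assembly that mm10 names, on the strand of the gene, with each motif in capitals in either orientation. The upstream peaks are those of Sorcs3, which encodes a sorting receptor of neurons (chr19:48205357-48205603, plus strand), of Zfpm1, a cofactor of GATA factors (chr8:122281402-122281590, plus strand), and of Hic1, a zinc-finger repressor (chr11:75170250-75170473, minus strand). The Zfpm1 peak holds no exact motif.
Sorcs3, 545 bp upstream: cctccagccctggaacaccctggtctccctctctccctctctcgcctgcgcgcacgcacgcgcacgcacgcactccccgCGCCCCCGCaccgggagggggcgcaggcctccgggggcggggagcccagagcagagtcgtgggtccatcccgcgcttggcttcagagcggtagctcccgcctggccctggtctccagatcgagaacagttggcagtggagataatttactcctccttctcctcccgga
Zfpm1, 645 bp upstream: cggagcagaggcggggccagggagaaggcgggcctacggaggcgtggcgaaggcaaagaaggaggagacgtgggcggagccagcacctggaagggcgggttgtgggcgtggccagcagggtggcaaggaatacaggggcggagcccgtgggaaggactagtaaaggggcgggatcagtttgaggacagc
Hic1, 843 bp upstream: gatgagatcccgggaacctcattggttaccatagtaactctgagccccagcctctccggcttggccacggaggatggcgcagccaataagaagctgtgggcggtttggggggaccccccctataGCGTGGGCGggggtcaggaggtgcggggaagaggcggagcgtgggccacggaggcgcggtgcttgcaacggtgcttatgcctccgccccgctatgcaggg

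The downstream peaks are those of Tuba1b, an alpha-tubulin gene (chr15:98933920-98934119, minus strand), of Plxnb2, a plexin receptor for semaphorins (chr15:89169551-89169762, minus strand), and of Tub, the tubby gene (chr7:108951216-108951423, plus strand). The Tuba1b and Plxnb2 peaks lie in first introns and the Tub peak in an exon of a noncoding transcript. In the Plxnb2 peak the 2 motifs share bases and appear as a single run of capitals, read on the opposite strand.
Tuba1b, 545 bp downstream: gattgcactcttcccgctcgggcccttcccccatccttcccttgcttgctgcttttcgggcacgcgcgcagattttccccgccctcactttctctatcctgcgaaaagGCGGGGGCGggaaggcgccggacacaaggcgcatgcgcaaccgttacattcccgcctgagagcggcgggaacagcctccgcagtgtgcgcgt
Plxnb2, 1031 bp downstream: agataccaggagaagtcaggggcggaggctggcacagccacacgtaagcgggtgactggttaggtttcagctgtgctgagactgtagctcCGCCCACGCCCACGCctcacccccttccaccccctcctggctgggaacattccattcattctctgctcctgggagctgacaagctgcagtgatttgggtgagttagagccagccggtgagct
Tub, 982 bp downstream: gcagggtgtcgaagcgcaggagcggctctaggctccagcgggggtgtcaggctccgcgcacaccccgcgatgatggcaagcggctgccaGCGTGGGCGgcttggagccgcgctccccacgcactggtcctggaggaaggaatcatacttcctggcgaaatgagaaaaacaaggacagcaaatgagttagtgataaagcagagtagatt

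Both forms of the motif occurred on both sides of the TSS, as the following 30-bp windows show, each read on the strand that carries the motif. They come from the peaks upstream of Lrrc3 (chr10:77903089-77903118, plus strand) and Eapp (chr12:54696475-54696504, minus strand) and downstream of Plekha6 (chr1:133182489-133182518, plus strand) and Crct1 (chr3:93014683-93014712, minus strand).
Lrrc3, upstream: gcctgtagggGCGTGGGCGggtttaggtac
Eapp, upstream: aaggctgtgagGCGGGGGCGgggtttgttg
Plekha6, downstream: gctccagcatGCGTGGGCGgagccctagct
Crct1, downstream: ctgcaggggctGCGGGGGCGgctgcggtgg

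EGR1 peaks were denser downstream than upstream at shoulder distances. On the assembled chromosomes 463 upstream and 820 downstream shoulder peaks shared 85574468 bases of territory, of which 41690890 were upstream. This gave 11.1 peaks per Mb upstream and 18.7 per Mb downstream, a ratio of 0.594. Upstream peaks were 36.1% (95% Wilson interval 33.5 to 38.8%) of the shoulder peaks, whereas 48.7% of the bases were upstream (exact binomial test, 2-sided, Benjamini-Hochberg adjusted p over all 13 tests = 2.41e-19). From 250 to 500 bp the order was the same, with 50.4 peaks per Mb upstream and 78.5 per Mb downstream. Nearest to the TSS it was the other way round, since the 250 bp just upstream held 306.8 peaks per Mb and the 250 bp just downstream 142.0 per Mb.

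Peak density fell away on both sides of the TSS and reached about the level beyond the shoulder near its outer edge. From 500 to 750 bp it was 26.4 peaks per Mb upstream (exact Poisson interval 22.8 to 30.4) and 43.8 per Mb downstream (39.2 to 48.8). From 1000 to 1250 bp it was 7.97 per Mb upstream (6.02 to 10.4) and 15.6 per Mb downstream (12.9 to 18.7). From 1750 to 2000 bp the densities were 4.57 (3.08 to 6.52) and 6.67 per Mb (4.90 to 8.87), and these intervals overlapped. In the next 250 bp, outside the shoulder, they were 4.82 upstream and 6.78 downstream.

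**Figure D1:**
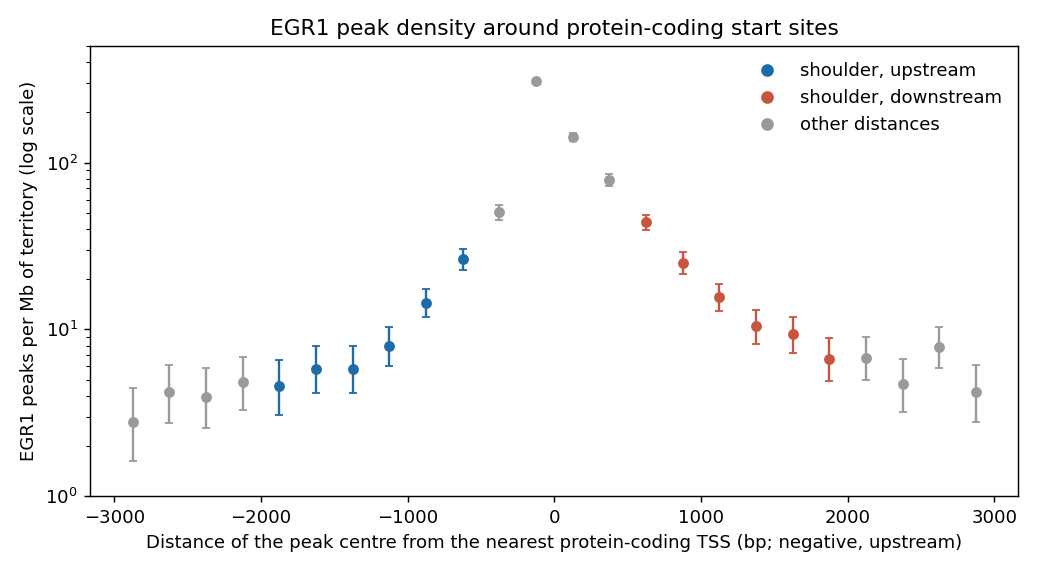
EGR1 peaks per Mb of territory (log scale) in 250-bp bins of signed distance from the nearest protein-coding TSS, with exact 95% Poisson intervals. Shoulder bins are coloured, and density fell from 26.4 to 4.57 per Mb upstream and from 43.8 to 6.67 per Mb downstream.

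The limits of the shoulder did not fall at a break in the data. Just outside, 400 to 500 bp from a TSS, there were 306 peaks, and just inside, 500 to 600 bp away, 249, and these had median IDRs of 0.000292 and 0.000326. At the outer limit the last 100 bp inside held 31 peaks and the next 100 bp outside 32, and their median IDRs were 0.000149 and 0.000435.

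Downstream shoulder peaks lay mostly in introns, whereas upstream ones were split between sequence inside and outside annotated transcripts. Of the 821 downstream peaks, 603 (73.5%, 95% Wilson interval 70.3 to 76.4%) had their centre in an intron of a protein-coding transcript, and for 566 (68.9%) it was the first intron of the nearest gene. A further 103 (12.6%) lay in coding sequence and 32 (3.90%) in 5′UTRs. Of the 465 upstream peaks, 229 (49.3%, 44.7 to 53.8%) lay outside every annotated transcript and 108 (23.2%) in introns of protein-coding transcripts. A further 56 lay in introns and 46 (9.89%) in exons of noncoding transcripts. The rule measures from the nearest TSS of any protein-coding transcript, so 59 upstream peaks (12.7%) lay in a first intron of their own gene, ahead of an internal TSS.

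Some shoulder peaks were near other start sites. A TSS of another gene type, such as a long noncoding RNA, lay within 500 bp of 43 upstream (9.25%) and 72 downstream peaks (8.77%). These shares are near the 7.90% of all 12014 EGR1 peaks, and lie between 11.8% of core promoter peaks and 4.43% of peaks 2 to 10 kb away. Another protein-coding gene covered the centre of 47 upstream (10.1%) and 30 downstream peaks (3.65%). Peaks in coding sequence were CpG-rich, as defined below, in 81.4% of cases, against 41.9% of those in introns of protein-coding transcripts.

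Shoulder peaks had higher IDRs than core promoter peaks and lower ones than peaks farther out. The median IDR was 0.000396 on shoulders (quartiles 3.59e-06 and 0.00433), 5.24e-05 for the 4886 core promoter peaks at most 500 bp from a TSS, and 0.000855 for the 1355 peaks 2 to 10 kb away. An IDR of 0.001 or less was reached by 753 shoulder peaks (58.6%, 95% Wilson interval 55.8 to 61.2%), by 69.9% of core promoter peaks and by 52.0% of those farther out. The share on shoulders minus that at core promoters was -11.4 percentage points (95% Newcombe interval -14.4 to -8.42; Fisher's exact test, adjusted p = 4.66e-14). It was 6.60 points above the peaks at 2 to 10 kb (2.80 to 10.4; Fisher's exact test, adjusted p = 0.00108), a difference that fell to 3.77 points among shoulder peaks 1000 to 2000 bp out (adjusted p = 0.232).

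Upstream shoulder peaks had the lower IDR of the 2 sides. Their median was 0.000169 against 0.000512 downstream. The share at 0.001 or less was 63.0% (58.5 to 67.3%) upstream and 56.0% (52.6 to 59.4%) downstream, a difference of 6.98 points (1.38 to 12.5; Fisher's exact test, adjusted p = 0.0227). This difference held its direction under every alternative but lost the threshold under 4 of them, given at the end. Where the gene had a core promoter peak, the share was 63.6% upstream and 62.2% downstream. Where it had none, the share was 62.55% upstream and 50.7% downstream, and this split was not tested. The upstream bin nearest to the TSS, from 500 to 750 bp, had the highest share of the shoulder bins, at 69.6%, whereas the bin from 1250 to 1500 bp upstream had the lowest, at 42.5% of 40 peaks.

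**Figure D2:**
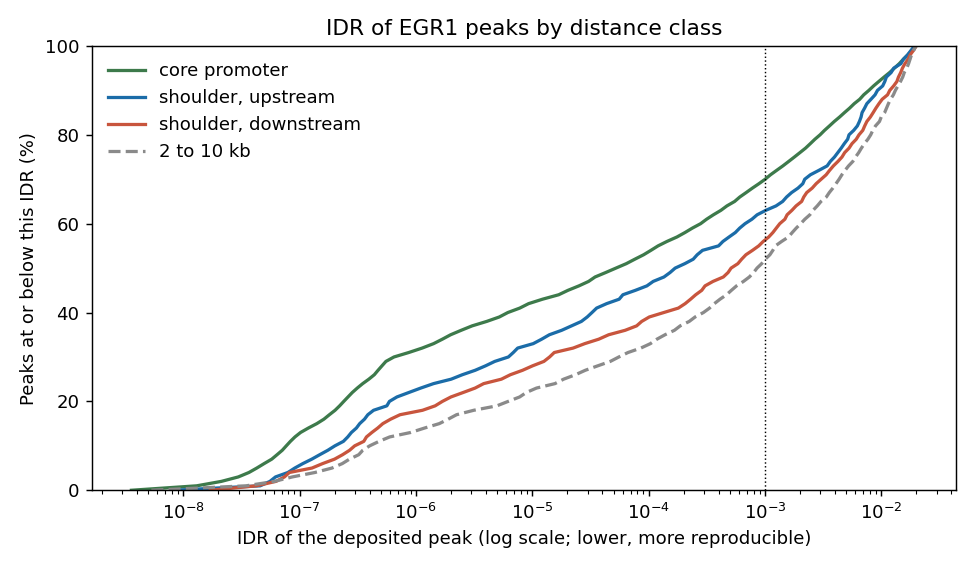
Cumulative share of EGR1 peaks (%) at or below each IDR (log scale) for core promoter peaks, upstream and downstream shoulder peaks and peaks 2 to 10 kb from a TSS. The dotted line marks an IDR of 0.001, reached by 69.9, 63.0, 56.0 and 52.0% of these peaks in that order.

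Over all peaks of each class, the exact EGR1 motif was more frequent on shoulders than farther out. Its share did not pass the test of a difference from core promoters. Within 250 bp centred on the peak, 286 of 1283 shoulder peaks (22.3%, 95% Wilson interval 20.1 to 24.7%) held GCGTGGGCG or GCGGGGGCG on either strand. The motif was in 24.5% of core promoter peaks, and the share on shoulders minus this was -2.24 points (-4.75 to 0.402; Fisher's exact test, adjusted p = 0.128). It was in 10.4% of peaks 2 to 10 kb away, 11.9 points fewer than on shoulders (9.11 to 14.7; Fisher's exact test, adjusted p = 2.36e-16). This order was not seen among CpG-rich peaks, as defined below. There the motif was in 30.6% on shoulders, 33.2% at 2 to 10 kb and 26.5% at core promoters. Among other peaks it was in 14.2, 5.22 and 15.5%, and the split was not tested. With 1 mismatch allowed, the motif was in 79.1% of shoulder and 85.5% of core promoter peaks, and that difference of -6.43 points passed (Fisher's exact test, adjusted p = 7.07e-08).

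Windows at the same distances rarely held the motif. Of 342251 windows of 250 bp that tile the shoulder distances of all protein-coding TSSs, peaks included, 0.201% held it. It was in 0.117% of the 339580 windows with no EGR1 peak centre within 250 bp, and in 2.08% of the 8790 of these that were CpG-rich as defined below. For 1220 shoulder peaks the mirror window, at the same distance on the other side of the same TSS, overlapped no EGR1 peak. The motif was in 272 of these peaks (22.3%) and in 6 mirror windows (0.492%). It was in the peak alone 269 times and in the mirror window alone 3 times (exact McNemar test, adjusted p = 5.75e-75). Another 63 pairs were left out because the mirror window overlapped a peak. Called peaks were thus set against windows chosen to hold none, and the test does not reach beyond that contrast. The mirror window also lies on the other side of the TSS, so base composition was not matched.

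No difference in motif share between the 2 sides passed the test. It was in 99 of 463 upstream peaks (21.4%, 17.9 to 25.3%) and 187 of 820 downstream peaks (22.8%, 20.1 to 25.8%), and upstream minus downstream was -1.42 points (-6.02 to 3.40; Fisher's exact test, adjusted p = 0.625). The G form was in 218 shoulder peaks and the T form in 71, with 3 peaks holding both. Of the 286 peaks with a motif, 239 (83.6%) had it within 50 bp of the centre, and the median distance was 21 bp. The motif nearest to the centre read in the direction of the gene in 163 peaks and against it in 123.

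Peaks with a lower IDR held the motif more often. It was in 39.5% (34.3 to 45.0%) of the 322 shoulder peaks with the lowest IDR and in 8.70% (6.09 to 12.3%) of the 322 with the highest. Shoulder peaks with a motif had a median IDR of 8.65e-06, against 0.000764 for those without. The share of CpG-rich windows moved the same way, from 61.1% to 40.4%, and its part in the difference was not tested.

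**Figure D3:**
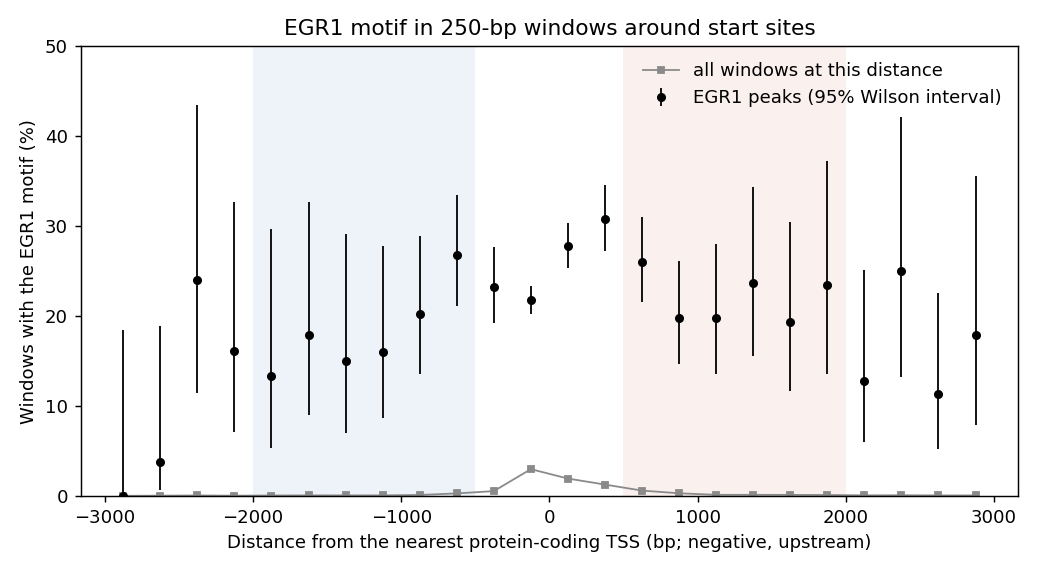
Share of 250-bp windows with the exact EGR1 motif (%) by signed distance from the nearest protein-coding TSS, for EGR1 peaks (points, 95% Wilson intervals) and all windows at that distance (line). Across the shaded shoulders the peaks ran from 13.3 to 26.8%, against 0.0799 to 0.627% of all windows.

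Shoulder peaks were split almost evenly between CpG-rich and other sequence, unlike core promoter peaks. A window was called CpG-rich where its GC content was at least 50% and its ratio of observed to expected CpGs at least 0.6, the composition of CpG islands. This held for 635 of 1283 shoulder peaks (49.5%, 46.8 to 52.2%), 82.1% of core promoter peaks and 18.5% of peaks 2 to 10 kb away. The share on shoulders minus that at core promoters was -32.6 points (-35.5 to -29.6; Fisher's exact test, adjusted p = 1.4e-114) and against the peaks farther out it was 31.05 points higher (27.6 to 34.4; Fisher's exact test, adjusted p = 2.13e-64). Their mirror windows were CpG-rich in 17.2% of pairs, against 48.9% of the peaks, with 463 pairs where the peak alone was CpG-rich and 76 where the mirror window alone was (exact McNemar test, adjusted p = 4.72e-68). Here too the mirror windows were chosen to hold no peak. They lie on the other side of the TSS, and the sides differ in CpG-rich windows, as given below.

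The share of CpG-rich peaks fell with distance, from 59.8% at 500 to 750 bp to 33.3% at 1750 to 2000 bp upstream, and from 58.7% to 27.7% downstream. The shares of the 2 sides as a whole were 48.6% upstream and 50% downstream, and their difference was -1.40 points (-7.07 to 4.28; Fisher's exact test, adjusted p = 0.642). The DNA they came from differed more, since 1.55% of upstream and 4.16% of downstream shoulder windows were CpG-rich. Per 1000 CpG-rich windows there were 87.1 upstream peaks (exact Poisson interval 76.1 to 99.2) and 56.2 downstream peaks (50.9 to 61.9). Per 1000 other windows there were 1.45 (1.27 to 1.65) and 2.44 (2.21 to 2.69), so that the higher density downstream was seen in other sequence and not in CpG-rich sequence. This split was made after the values were seen and has no test.

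The motif was not limited to CpG-rich peaks. It was in 30.6% (27.1 to 34.2%) of CpG-rich and 14.2% (11.7 to 17.1%) of other shoulder peaks. In shoulder windows as a whole it was in 3.87% of CpG-rich and 0.0921% of other windows. Other short motifs were counted after these values were seen. The GC box GGGCGG, bound by Sp factors, was in 58.0% of shoulder peaks and 4.97% of shoulder windows, on either strand, and it can overlap the G form of the EGR1 motif. The AP-1 motif TGACTCA, bound by Fos and Jun factors, was in 4.21% of shoulder peaks and 4.00% of windows, and the cyclic AMP response element TGACGTCA in 1.25% and 0.145%. In CpG-rich sequence alone the GC box was in 73.4% of shoulder peaks and 40.8% of shoulder windows. There the cyclic AMP response element was in 1.73% and 0.688%, and the AP-1 motif in 2.05% and 1.95%. In other sequence the AP-1 motif was in 6.33% of shoulder peaks (Wilson interval 4.70 to 8.47%) and 4.06% of shoulder windows. The AP-1 shares of peaks and windows were thus close in CpG-rich sequence but not in other sequence, and this split was not tested. Over all EGR1 peaks the GC box was in 56.5%, the AP-1 motif in 4.88% and the cyclic AMP response element in 1.42%.

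**Figure D4:**
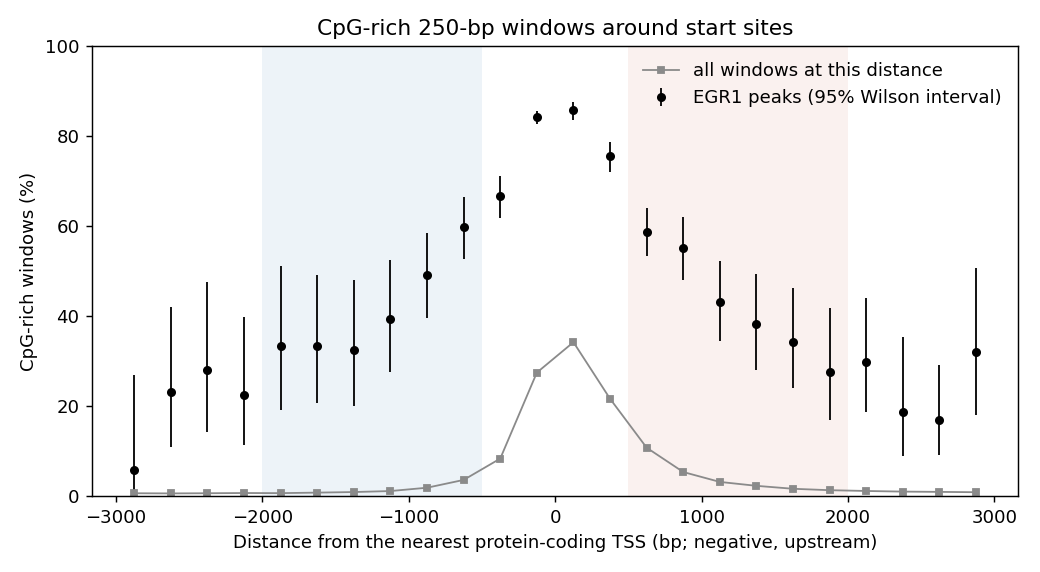
Share of CpG-rich 250-bp windows (%) by signed distance from the nearest protein-coding TSS, for EGR1 peaks (points, 95% Wilson intervals) and all windows at that distance (line). Within the shaded shoulders the peaks fell from 59.8 to 33.3% upstream and from 58.7 to 27.7% downstream as distance grew.

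Some genes with a shoulder peak had a core promoter peak as well and others did not. Of 1172 genes, 522 (44.5%) had an EGR1 peak within 500 bp of any of their TSSs and 650 (55.5%) had none in the list. For all 21853 protein-coding genes on assembled chromosomes, 24.9% had a core promoter peak and 5.36% a shoulder peak, 2.05% upstream and 3.56% downstream. Counted over peaks, the gene had a core promoter peak for 44.3% of upstream and 46.4% of downstream shoulder peaks, and upstream minus downstream was -2.11 points (-7.72 to 3.56; Fisher's exact test, adjusted p = 0.573). Both shares depend on the choice of TSSs. With distances measured only from the 5′ end of each gene they were 42.0% upstream and 66.9% downstream, a difference of -24.9 points (Fisher's exact test, adjusted p = 2e-16). A core promoter peak was still one within 500 bp of any TSS of the gene there. A shoulder peak near an internal TSS could then count as its own core promoter peak. These 2 shares therefore do not show how often separate peaks occurred together.

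Where the gene of a shoulder peak also had a core promoter peak, the shoulder peak usually had the higher IDR. The core promoter peak could be at any TSS of the gene, so the 2 were not always neighbours. Among 587 such shoulder peaks, 491 (83.65%) had another EGR1 peak within 2 kb. The core promoter peak had the lower IDR in 356 of the 587, and the medians were 0.000219 for shoulder and 2.45e-05 for core peaks. The shoulder peak had the lower IDR in 231 (39.4%). Most genes (1072) had a single shoulder peak, 86 had 2 and 14 had 3. In 58 genes peaks stood on both sides, among them Vgf, the precursor of secreted neuropeptides, with 1 peak upstream and 2 downstream, and Dlgap3, a postsynaptic scaffold gene, with 2 upstream and 1 downstream.

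The upstream shoulder peaks with the lowest IDR lay at genes of several kinds. The peak of Sorcs3 had the lowest IDR of all shoulder peaks, 8.37e-09, and Sorcs3 had no core promoter peak. Zfpm1 (2.98e-08), Hic1 (3.09e-08), Lrrc3 (4.31e-08) and Mex3c (5.43e-08), an RNA-binding ubiquitin ligase gene, also had none. The peak 776 bp upstream of Sp4, a factor that binds GC boxes, had an IDR of 4.39e-08, against 0.00146 for its core promoter peak. At Kcnn2, a calcium-activated potassium channel gene, and at Rap2a, a gene for a small GTPase, the shoulder peaks (4.70e-08 and 5.08e-08) had core promoter peaks of similar IDR, 8.78e-08 and 5.03e-08.

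The downstream shoulder peaks with the lowest IDR included that of Egr1 itself. It lay 518 bp downstream of the TSS in coding sequence on chromosome 18 from 34861624 to 34861826, held the G form of the motif and had an IDR of 2.13e-08. Another Egr1 peak, 629 bp upstream of the nearest TSS and in an annotated 5′UTR, had an IDR of 6.85e-05, while the core promoter peak had one of 0.00603. The 500 bp limit passes close to the first of these peaks. The other downstream peaks by this rule were those of Tuba1b (1.71e-08), the scaffold gene AC149090.1 (1.8e-08), Plxnb2 (2.93e-08), Crct1 (3.05e-08), Ppp1r37 (3.17e-08), which encodes a regulator of protein phosphatase 1, Tub (3.31e-08) and Plekha6 (4.11e-08). Of these 7, Plxnb2, Tub and AC149090.1 had a core promoter peak, each with a higher IDR than the shoulder peak.

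Transcription factor genes that neuronal activity induces had shoulder peaks most often among 16 gene lists. Of 30 such genes, 16 (53.3%) had a shoulder peak, 9 upstream and 8 downstream with Egr1 on both sides, against 5.36% of all protein-coding genes. The 18 peaks had a median IDR of 6.80e-07, 17 of them had an IDR of 0.001 or less, and 9 held the exact motif. Over all shoulder peaks the median IDR was 0.000396, and the shares were 58.6% for that IDR and 22.3% for the motif. Of the 18 peaks 15 were CpG-rich, and over all CpG-rich shoulder peaks these shares were 65.0% and 30.6%. Of the 16 genes, 8 had a core promoter peak as well, against 44.5% of all genes with a shoulder peak, and 8 did not. A further 8 genes had a core promoter peak only, and 6, among them Fos and Nr4a2, had neither in the list.

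The 4 lowest IDRs of this list were those of Egr1 and of Jund (8.08e-08), Npas4 (1.15e-07) and Nr4a3 (1.55e-07). Jund encodes an AP-1 subunit, Npas4 a factor induced by calcium entry into neurons and Nr4a3 an orphan nuclear receptor. The Npas4 peak lay 592 bp upstream and held the G form of the motif, with a core promoter peak of IDR 6.17e-06. The Nr4a3 peak lay 1869 bp upstream of an internal TSS, in a first intron of the gene, with no core promoter peak.

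The other genes of the list are named to complete it. Fosl2 (1.94e-07) and Junb (2.31e-07), AP-1 genes like Jund, had peaks 617 and 599 bp downstream, both with a motif and a core promoter peak. Jun (3.26e-07), Bhlhe40 (4.08e-07) and Egr2 (0.000109) had upstream peaks, no exact motif there and no core promoter peak. Klf10 (8.85e-07) and Egr3 (1.25e-06) had upstream peaks with the T form, and Per1 (1.81e-06), a clock gene, had one without. Downstream, the peaks of Ier2 (5.55e-07), Fosb (8.04e-07), Atf4 (9.55e-06) and Per2 (0.012) held no exact motif, and none of these genes had a core promoter peak.

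The shoulders of these genes were rich in CpGs, and this moved with the count. Of their shoulder windows 20.6% were CpG-rich, against 2.89% over all genes, and they had 16.9 windows per gene, against 15.7 over all genes. Within CpG-rich windows alone there were 144.2 peaks per 1000 (15 peaks, exact Poisson interval 80.7 to 237.9) at these genes and 64.3 (59.4 to 69.5) over all genes. The expression of the genes was not measured here. For each of the other lists the exact Poisson interval of the rate within CpG-rich windows includes the 64.3 over all genes.

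Effector genes of neuronal activity had shoulder peaks in 7 of 32 cases (21.9%), against 5.36% of all protein-coding genes. Of their shoulder windows 12.6% were CpG-rich, against 2.89% over all genes. Within CpG-rich windows alone there were 109.4 peaks per 1000 (exact Poisson interval 43.97 to 225.4), an interval that includes the 64.3 over all genes. The lowest IDRs were those of Nrn1, which encodes the neurite growth factor neuritin, 1077 bp upstream (8.28e-08), of the pentraxin gene Nptx1, 777 bp downstream (1.7e-07), of Vgf, 1338 bp upstream (6.08e-07), and of Spred1, 690 bp upstream (2.13e-06). Nrn1, Nptx1 and Vgf also had core promoter peaks. Spred1, which encodes an inhibitor of Ras signalling, had none.

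Receptor and channel genes also had shoulder peaks at shares above the 5.36% of all protein-coding genes. Of 26 glutamate receptor genes 6 (23.1%) had one, led by the NMDA receptor gene Grin2b (5.97e-08, 597 bp upstream), the metabotropic receptor gene Grm4 (6.61e-08, 1344 bp downstream), Grin2a (7.62e-07, 994 bp upstream) and the kainate receptor gene Grik2 (1.61e-05, 851 bp downstream). The Grin2b and Grik2 genes had no core promoter peak. With only the 5′ end of each gene as TSS, 3 of the 26 genes had a shoulder peak. Of 18 GABA receptor genes 3 (16.7%) had one, all downstream, among them Gabra4 (1.06e-06) and Gabrb2 (0.000224). Per 1000 windows this made 11.7 peaks, but its exact Poisson interval, 2.42 to 34.3, includes the 3.75 over all genes. Within CpG-rich windows alone the glutamate receptor genes had 102.6 peaks per 1000 (27.95 to 262.6), an interval that includes the 64.3 over all genes.

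Potassium channel genes had shoulder peaks in 17 of 94 cases (18.1%), 9 upstream and 8 downstream. Of the 17 genes, 8 had a core promoter peak, against 44.5% of all genes with a shoulder peak. Beside Kcnn2 the lowest IDRs were those of the channel subunit genes Kcnab2 (4.22e-08), Kcnj4 (6.84e-08) and Kcnd2 (1.69e-07). The Kcnd2 peak stood 1141375 bp from the next EGR1 peak. Of 39 genes of voltage-gated calcium and sodium channels 7 (17.9%) had a shoulder peak. Of the 7, 1 also had a core promoter peak, a small count whose difference from the 44.5% was not tested. These genes had 22.5 shoulder windows each, against 15.7 over all genes, and 9.11 peaks per 1000 windows (exact Poisson interval 3.93 to 18.0). Named by the rule were Cacna1e (3.87e-07), Cacng4 (1.93e-05), Cacnb1 (2.57e-05) and Cacna1a (7.55e-05). Within CpG-rich windows alone the potassium channel genes had 79.55 peaks per 1000 (31.98 to 163.9). The calcium and sodium channel genes had 125 (34.06 to 320), and both intervals include the 64.3 over all genes.

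Synaptic genes had shares in the same range. Of 49 genes of synaptic vesicles and active zones 10 (20.4%) had a shoulder peak, among them Sv2c (7.48e-08), Slc17a7 (1.44e-07), the vesicular glutamate transporter of cortical neurons, Rab3a (2.37e-07) and Unc13a (2.93e-07), a vesicle priming factor gene. The Slc17a7 peak lay 1597 bp upstream, and the gene had no core promoter peak. Of 32 postsynaptic and adhesion genes 9 (28.1%) had one, led by Synpo (6.44e-08) and Shank3 (7.87e-08), a scaffold gene, then Dlgap3 (8.21e-05) and the neurexin gene Nrxn2 (0.000105). This last list had 30.1 shoulder windows per gene, the most of all lists, and 11.4 peaks per 1000 windows (exact Poisson interval 5.70 to 20.4) against 3.75 over all genes.

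Developmental regulators of neurons had shoulder peaks too, at shares above the 5.36% of all protein-coding genes. Of 37 transcription factor genes of cortical neurons 9 (24.3%) had one, led by Neurod2 (4.79e-08), Foxp1 (2.81e-07), Pou3f2 (3.23e-07) and Pou3f1 (6.1e-07). This list had 23.3 shoulder windows per gene, against 15.7 over all genes, and 15.3% of its windows were CpG-rich, against 2.89%. Per 1000 CpG-rich windows it had 45.45 shoulder peaks (exact Poisson interval 16.7 to 98.9), below the 64.3 over all genes, which the interval includes. Of 71 axon guidance genes 14 (19.7%) had a shoulder peak, 4 upstream and 11 downstream, led by Plxnb2, the netrin receptor gene Unc5a (1.05e-07), the ephrin gene Efna3 (1.97e-07) and Ephb6 (5.89e-06). Of 33 genes of MAP kinase phosphatases and Sprouty-type inhibitors 5 (15.2%) had one, and beside Spred1 these included Dusp8 (1.38e-06), Spred2 (7.13e-06) and Dusp6 (0.000842), whose peak at 1994 bp was close to the outer limit.

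Housekeeping genes had shoulder peaks at shares below the 5.36% of all protein-coding genes. Of 40 proteasome subunit genes 1 had one (2.50%, Psmc2, IDR 0.0148) and of 77 cytosolic ribosomal protein genes 1 (1.3%, Rpl3, 0.00178), although 16 and 30 of these genes had a core promoter peak. Both lists had fewer windows per gene than the average of 15.7, at 14.9 and 10.8, and per 1000 windows they held 1.68 (exact Poisson interval 0.0424 to 9.33) and 1.199 peaks (0.0304 to 6.68), intervals that include the 3.75 over all genes. Of 16 oligodendrocyte genes 0 had a shoulder peak, of 14 astrocyte genes 2 (14.3%), Glul (6.19e-05) and Sox9 (0.00151), and of 14 microglial genes 1 (7.14%), C1qc (0.0108). These glial shares rest on 3 peaks in all and lie on both sides of the 5.36% of all genes. Bulk tissue was used, so fewer cells of a type and less binding per cell cannot be told apart.

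**Figure D5:**
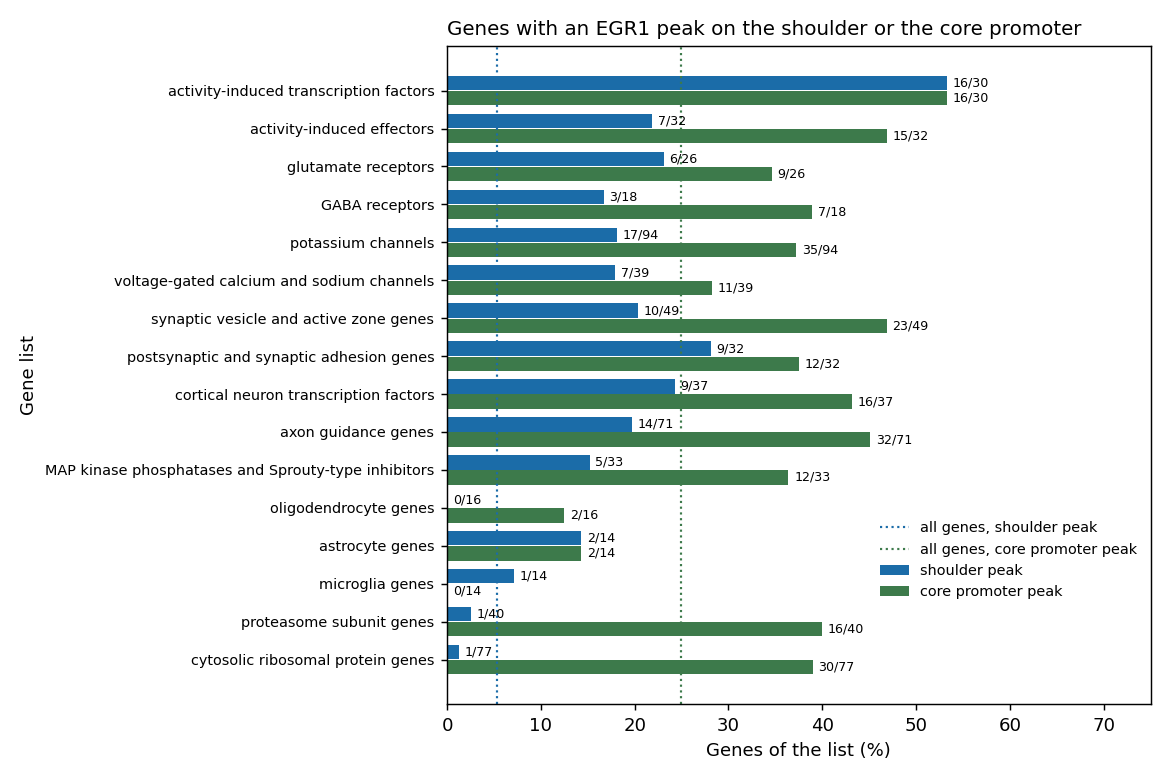
Share of genes (%) in each of 16 lists with an EGR1 shoulder peak (blue) or a core promoter peak (green), with counts at the bars. Dotted lines give all protein-coding genes, 5.36 and 24.9%, and the list of activity-induced transcription factors reaches 53.3% for both.

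The share of EGR1 peaks that were shoulder peaks varied between chromosomes. It ran from 6.88% on chromosome 16 (26 of 378 peaks) to 14.8% on chromosome 19 (57 of 386). Whether this spread exceeds the scatter of counting was not tested. Chromosome 11 held the most, 128, and 17 of the 164 peaks on chromosome X were shoulder peaks.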

How the data were processed

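EGR1 ChIP-seq was performed by the authors on mouse frontal cortex. Trimmed reads were aligned to build mm10 with Bowtie (the submitters' processing notes give Bowtie2 2.2.9), peaks were called in each replicate with SPP, and an IDR of 2% was the limit. The deposited unit is the IDR, read like a q-value, with each peak's start and end. Read depth is not given in the sources used here, and the input DNA was not analysed here.

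Positions were read as in BED files, printed counted from 1, and compared with GRCm38.p6 and GENCODE M21 (54457 TSSs of protein-coding transcripts). Centres were the mean of start and end. Windows of 250 bp were used for motifs and CpG content. Classes and sides were compared by Fisher's exact test, mirror windows by the exact McNemar test and densities by an exact binomial test, all 2-sided, with Benjamini-Hochberg adjustment over 13 tests and a threshold of 0.05. Peaks of 1 gene are not independent. Gene lists were counted, not tested.

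The peaks, lists and rules were chosen with earlier results of these data known. Named are the 8 peaks of each side with the lowest IDR and up to 4 genes of each list. The value of 1 gene that this rule names is not reported here. Alternatives covered the TSS set, distance limits, IDR limit, opposite-strand pairs, other gene types, motif form and window, CpG limits and core distance. Python 3.11.15, numpy 2.4.6, pandas 2.3.3 and scipy 1.17.1 were used. On simulated data 1000 of 1000 peaks were classified correctly and 400 of 400 motif states recovered.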

Additional observations from a re-analysis of the deposited data

How the results depend on the processing

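Of 111 recomputed tests, 94 kept their direction and their side of the threshold, including every value for the density of the 2 sides (ratio 0.325 to 0.655), both mirror comparisons, CpG-rich shares against other classes and the motif share against peaks at 2 to 10 kb. The number of shoulder peaks stayed within 1.5 times of 1286 under 5 of 7 alternatives. There were 814 shoulder peaks from 500 to 1000 bp and 472 from 1000 to 2000 bp. In the mirror comparisons the mirror windows held no peak by selection under every alternative.

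The IDR difference between sides (Fisher's exact test) lost the threshold with all transcripts (5.24 points, adjusted p = 0.0878), gene 5′ ends (3.57, 0.26), IDRs up to 0.01 (5.54, 0.0877) and peaks from 1000 to 2000 bp (1.40, 0.846). The IDR difference from peaks at 2 to 10 kb lost it with IDRs up to 0.01 (4.07, 0.073) and from 1000 to 2000 bp (3.77, 0.232).

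The motif difference from the core promoter passed with all transcripts (-4.83), from 1000 to 2000 bp (-5.21) and with 1 mismatch (-6.43), and reversed with the T form only (0.251). The motif difference between sides passed with gene 5′ ends (-5.66) and reversed with all transcripts (0.373), from 500 to 1000 bp (0.761) and with the T form (1.82). With gene 5′ ends the CpG-rich difference between sides (-11.5) and that in core promoter peaks (-24.9) passed, and the latter reversed without peaks near other gene types (0.348). In the -24.9 a shoulder peak near an internal TSS could count as its own core promoter peak. The causes were not tested.

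List counts under other TSS sets, chosen after seeing the data, moved by over 1.5 times for glutamate receptors (3 with gene 5′ ends), ribosomal proteins (2 with gene 5′ ends) and oligodendrocyte genes (1 with all transcripts).

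No paired analysis was possible because the peak list merges both replicates, and no leave-one-out value was computed.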
